A study of Homo sapiens with 6 samples.

Results

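The mevalonate arm of cholesterol synthesis is the run of enzymes that builds squalene from acetyl-CoA, and 9 genes of this arm were followed through LX-2 cells treated with rhSema3C: ACAT2, HMGCS1, MVK, PMVK, MVD, IDI1, FDPS, GGPS1 and FDFT1. They were taken by gene name from a table of 33900 genes, and all 9 were present and passed the filter on low values, which required an average FPKM of 0.5 or more across the samples and left 14178 genes. LX-2 is a human hepatic stellate cell line, so both groups came from a single line, which the sample labels give as wild type. The cells were grown in DMEM with fetal bovine serum. One group of 3 samples received rhSema3C, the recombinant human form of the secreted semaphorin Sema3C, at 300 ng/ml for 48 h, and the other group of 3 samples received PBS for the same time. A single dose and a single time were sampled, and the question was how the transcripts of stellate cells differ after exposure to Sema3C.

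In this pathway, acetyl-CoA units are joined to HMG-CoA, mevalonate is phosphorylated and decarboxylated to an isoprenoid unit of 5 carbons, and such units are then joined head to tail into farnesyl diphosphate. Farnesyl diphosphate stands at a branch: it can be coupled to squalene for sterols, extended to geranylgeranyl diphosphate, or used for protein prenylation, dolichol and ubiquinone. Many of these genes are textbook targets of SREBP2, a transcription factor that is released from the endoplasmic reticulum when the sterol content of its membrane is low.

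Total counts on genes lay between 68267808 and 89245585 per sample, and the counts were scaled with TMM factors and are given as CPM (counts scaled to one common library size). The factors lay between 0.958 and 1.04. Group values are means ± SD over samples, and SE is the standard error of a log2 fold change or difference. Of 7 stellate or fibroblast markers, all but COL1A2 passed the filter, and their summed level was 1473 to 1527 FPKM in PBS and 1173 to 1237 FPKM with rhSema3C. Most of that sum was VIM, at a mean of 1035 FPKM in PBS and 834 FPKM with rhSema3C. Under the edgeR test described below, COL1A1, ACTA2, TIMP1, VIM and SPARC were called lower. Their log2 fold changes were -0.78, -0.56, -0.43, -0.41 and -0.28, and PDGFRB had no call, at 0.09. COL1A2, a defining collagen chain of stellate cells, was near 0, at 0.130 FPKM in PBS. PTPRC and CD163 of leukocytes and macrophages, ALB and APOA1 of hepatocytes, EPCAM and KRT19 of biliary cells, and all 3 endothelial markers were below the filter. In the same lists, CD68 and CD14 of macrophages, SERPINA1 of hepatocytes and KRT7 of biliary cells passed it. From PBS to rhSema3C, CD68 went from 214 to 143 CPM and CD14 from 8.23 to 4.70 CPM. SERPINA1 went from 14.5 to 18.8 CPM and KRT7 from 12.6 to 12.7 CPM. The summed levels were 94.4 to 103 FPKM in PBS against 66.8 to 72.6 FPKM with rhSema3C for the 4 macrophage or leukocyte markers, nearly all of it CD68, 2.62 to 3.14 against 3.52 to 4.14 FPKM for the hepatocyte markers, 0.151 to 0.178 against 0.589 to 0.843 FPKM for the endothelial markers and 2.37 to 3.88 against 3.20 to 3.67 FPKM for the biliary markers. The part of these shifts in the results that follow was not tested. In bulk RNA, a change in the number of expressing cells and a change in RNA per cell cannot be told apart.

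With rhSema3C, 7 of the 9 genes rose and 2 were called lower. HMGCS1, the synthase that makes HMG-CoA, rose most, to 4.74 times its level in PBS, whereas ACAT2, MVD, IDI1 and FDPS rose between 2.02 and 2.37 times, and FDFT1 and GGPS1 rose 1.77 and 1.70 times. MVK and PMVK, the kinases that add the first and the second phosphate to mevalonate, were lower by 11.8% and 25.9%, although the small change of MVK turned slightly positive under scaling to TPM. Under edgeR's quasi-likelihood test with Benjamini-Hochberg adjustment over all 14178 genes, the 7 rises compare with 31.7% of all genes called higher, and the 2 falls with 30.6% called lower. A call in either direction was therefore common in these libraries. Of the 9 genes, 5 passed a 2-fold rise with an unadjusted p under 0.05, which 3.42% of all genes did. The median log2 fold change was 1.01 for the 9 genes and 0.02 for all genes tested. In every one of the 9 genes the 3 rhSema3C samples lay wholly on one side of the 3 PBS samples, 7 above and 2 below, and the same held for 34.6% of all genes in the upward and 33.3% in the downward direction.

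**Figure D1:**
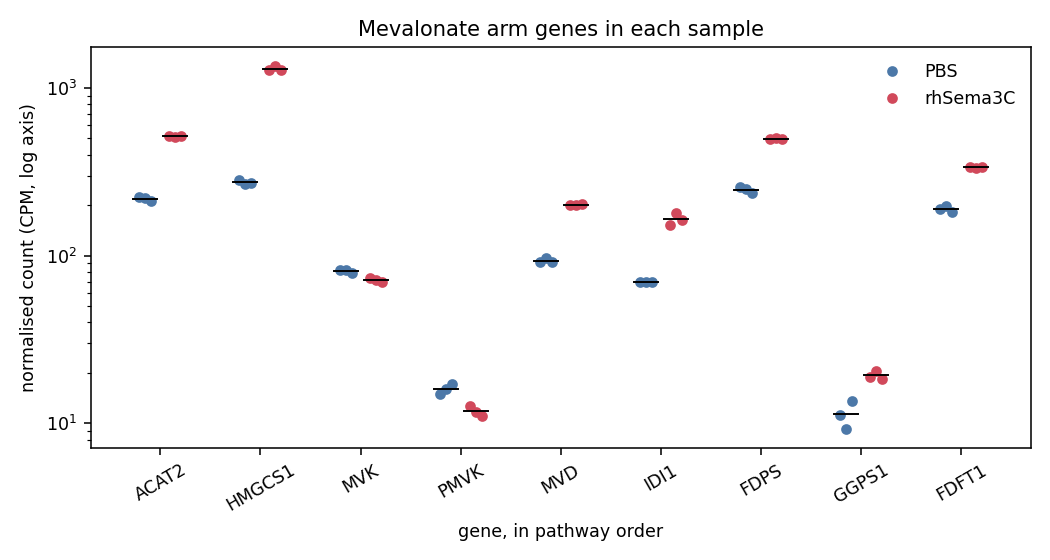
Level of each of the 9 genes in each sample, in CPM on a log axis, with the genes in pathway order. Points are samples, and horizontal bars mark group means (n = 3 per group). HMGCS1 moved from 275 to 1302 CPM, and the groups did not overlap for any gene, with PMVK and MVK lower under rhSema3C (MVK not so under scaling to TPM).

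Promoter sequences are shown for HMGCS1, the gene with the largest rise, for MVD, another that rose, and for MVK and PMVK, the genes called lower, so that genes which moved in opposite directions can be read side by side. Each run holds the 250 bases before and the 50 bases from the RefSeq transcription start on GRCh38.p14, 5′ to 3′ on the strand of the gene. The HMGCS1 window, the upstream one of 2, lies at chr5:43313363-43313662 on the minus strand, the MVD window at chr16:88663042-88663341 on the minus strand, the MVK window at chr12:109573544-109573843 on the plus strand and the PMVK window at chr1:154936670-154936969 on the minus strand. Capitals mark matches on either strand to CCAAT, the box bound by NF-Y, and to GGGCGG, the GC box.
HMGCS1: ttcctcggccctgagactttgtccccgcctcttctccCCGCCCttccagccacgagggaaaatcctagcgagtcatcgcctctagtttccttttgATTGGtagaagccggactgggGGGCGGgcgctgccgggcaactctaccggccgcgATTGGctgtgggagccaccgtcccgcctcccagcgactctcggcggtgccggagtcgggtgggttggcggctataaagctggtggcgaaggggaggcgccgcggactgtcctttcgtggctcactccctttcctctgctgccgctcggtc
MVD: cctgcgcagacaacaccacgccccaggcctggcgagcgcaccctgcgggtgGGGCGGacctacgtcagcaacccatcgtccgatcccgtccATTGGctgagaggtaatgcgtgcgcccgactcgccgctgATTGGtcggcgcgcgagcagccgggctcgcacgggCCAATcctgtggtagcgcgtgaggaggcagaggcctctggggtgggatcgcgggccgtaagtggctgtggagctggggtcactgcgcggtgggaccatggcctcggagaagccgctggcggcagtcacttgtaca
MVK: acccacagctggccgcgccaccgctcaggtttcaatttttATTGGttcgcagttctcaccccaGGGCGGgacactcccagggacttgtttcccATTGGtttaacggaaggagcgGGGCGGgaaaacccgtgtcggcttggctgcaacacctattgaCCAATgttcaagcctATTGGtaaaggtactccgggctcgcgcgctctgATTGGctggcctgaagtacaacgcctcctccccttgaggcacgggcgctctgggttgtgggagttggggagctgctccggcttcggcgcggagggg
PMVK: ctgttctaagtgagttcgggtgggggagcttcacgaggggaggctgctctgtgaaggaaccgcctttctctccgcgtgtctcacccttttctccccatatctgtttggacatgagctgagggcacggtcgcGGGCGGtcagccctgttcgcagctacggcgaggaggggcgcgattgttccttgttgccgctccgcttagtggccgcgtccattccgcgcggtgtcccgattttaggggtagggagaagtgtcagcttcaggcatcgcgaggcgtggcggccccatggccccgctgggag

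The CCAAT box was present in the shown windows of HMGCS1, MVD and MVK and was not found in that of PMVK. HMGCS1 had 2 matches in the window shown, whose first bases were at -155 and -100 relative to the start, and 0 in its other window, and MVD had 3, at -159, -120 and -85. MVK, which fell slightly here but not under scaling to TPM, had 5 matches, at -210, -157, -94, -79 and -46. Of all 35116 promoters in the RefSeq table, 34.6% held at least 1 CCAAT, 10.8% at least 2, 3.26% at least 3 and 0.359% at least 5. Windows were on hand for 7 of the 9 genes, 12 windows in all because some genes have several starts, and some windows of one gene overlap. FDPS also had 3 matches in its window, at -176, -122 and -51. IDI1 had 3, of which 2 overlap each other, in its window 2 and 2 in its window 3, and GGPS1 had 1 in 1 of its 3 windows. The GC box was found in 11 of the 12 windows, against 45.0% of all promoters. The sterol regulatory element spelled TCACNCCAC and read on both strands, a form bound by SREBP, was found in 0 of the 12 windows and in 1.13% of all promoters. These are matches of letters within a fixed window, and a missing match says only that those letters are not in that window.

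**Figure D2:**
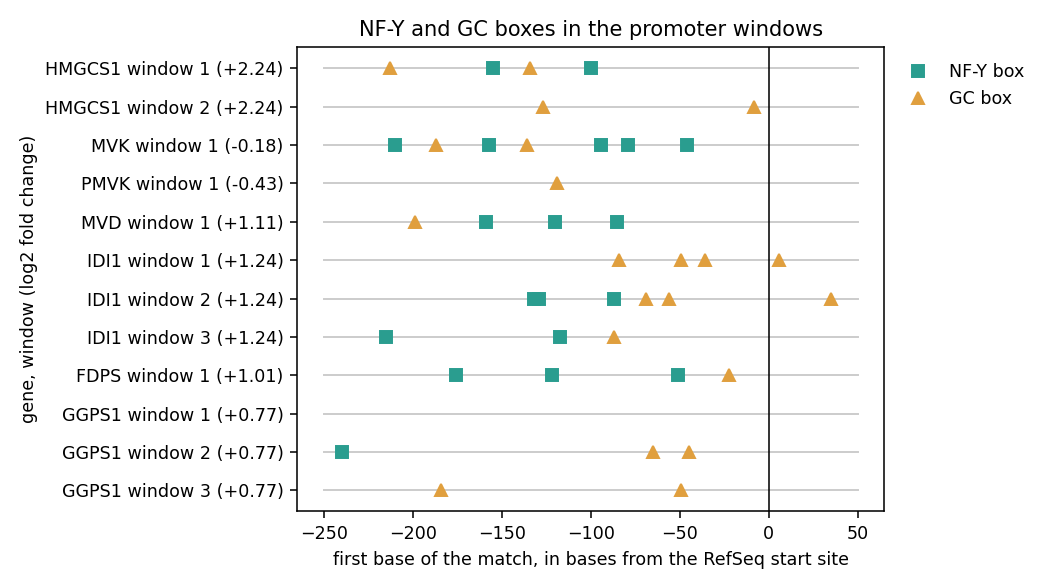
Positions of NF-Y and GC boxes in the 12 promoter windows, as distance in bases from the RefSeq start, 1 row per window, with the log2 fold change of the gene beside it. MVK carries 5 NF-Y boxes with a log2 fold change of -0.18 (0.046 under scaling to TPM), and PMVK carries none with -0.43.

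ACAT2 (ENSG00000120437, chr6:159762045-159779112, plus strand), the cytosolic thiolase that joins acetyl-CoA units to acetoacetyl-CoA, stood at 223, 222 and 213 CPM in the PBS samples and at 521, 507 and 520.4 CPM in the rhSema3C samples. The samples within each group lay close together and the groups were far apart. The mean went from 219 ± 5.74 to 516 ± 7.75 CPM (n = 3), a log2 fold change of 1.23 (SE 0.04, adjusted p = 1.8e-09). Coordinates of genes are those of the deposited table and lie on GRCh38.

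HMGCS1 (ENSG00000112972, chr5:43287470-43313512, minus strand), which adds a further acetyl-CoA to form HMG-CoA, measured 282, 269 and 273 CPM in PBS and 1272, 1361 and 1272 CPM with rhSema3C. Its mean rose from 275 ± 6.70 to 1302 ± 51.2 CPM (n = 3). The log2 fold change was 2.24 (SE 0.04, 95% interval 2.15 to 2.34, adjusted p = 7.8e-11), the 27th largest among the 14178 genes tested. The lowest rhSema3C sample was thus far above the highest PBS sample.

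MVK (ENSG00000110921, chr12:109573255-109598117, plus strand), mevalonate kinase, gave 82.4, 82.1 and 79.0 CPM in PBS and 73.3, 71.8 and 69.7 CPM with rhSema3C. All 3 treated samples were below all 3 controls, by a small margin. Its log2 fold change was -0.18 (SE 0.04, 95% interval -0.28 to -0.08, adjusted p = 0.0043). The call depended on how the samples were scaled. With library size alone, without TMM factors, the value was -0.07 (adjusted p = 0.16 from edgeR), and under limma after rescaling to TPM it came to 0.046 (adjusted p = 0.37), so that no direction for MVK held under every scaling. Those scalings also moved the median of all genes tested, from 0.02 to 0.13 and 0.23, and relative to that median MVK stood at -0.27 to -0.07 over all 15 settings.

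PMVK (ENSG00000163344, chr1:154924740-154936719, minus strand), phosphomevalonate kinase, gave 14.9, 16.0 and 17.2 CPM in PBS and 12.8, 11.7 and 11.1 CPM with rhSema3C, from 931 to 1281 counts a sample. The treated samples were again all below the controls. The mean fell from 16.0 ± 1.18 to 11.9 ± 0.826 CPM (n = 3), with a log2 fold change of -0.43 (SE 0.10, 95% interval -0.65 to -0.22, adjusted p = 0.0024). Unlike MVK, PMVK stayed lower and past the threshold under all 14 alternatives, with values from -0.49 to -0.20.

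MVD (ENSG00000167508, chr16:88651935-88663161, minus strand), the decarboxylase that follows PMVK in the pathway, measured 92.0, 97.1 and 91.7 CPM in PBS and 199.8, 199.99 and 204 CPM with rhSema3C. The step after the pair of kinases was therefore again higher in every treated sample. Its mean rose from 93.6 ± 3.04 to 201 ± 2.58 CPM (n = 3), a fold of 2.15 with an adjusted p of 4.9e-09. IDI1 (ENSG00000067064, chr10:1039152-1049170, minus strand), the isomerase that interconverts the activated 5-carbon units, measured 69.9, 70.1 and 69.3 CPM in PBS and 152, 179.8 and 163 CPM with rhSema3C. The treated samples were more spread than the controls, with a coefficient of variation of 8.48% against 0.636%, and all lay above them. The log2 fold change of IDI1 was 1.24 (SE 0.06, adjusted p = 2.3e-08).

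FDPS (ENSG00000160752, chr1:155308748-155320666, plus strand), farnesyl diphosphate synthase, gave 255, 250.3 and 236 CPM in PBS and 499, 500.5 and 497 CPM with rhSema3C. The treated samples were nearly equal to each other, at close to 2 times the control level. The log2 fold change was 1.01 (SE 0.04, 95% interval 0.92 to 1.11, adjusted p = 1.1e-08), so the interval spans the 2-fold line. At the branch beyond FDPS, GGPS1 (ENSG00000152904, chr1:235327350-235344532, plus strand), which makes geranylgeranyl diphosphate, gave 11.2, 9.23 and 13.6 CPM in PBS and 18.9, 20.6 and 18.5 CPM with rhSema3C. Its controls were the most scattered of the 9 genes, with a coefficient of variation of 19.4%, and the groups still did not overlap. The log2 fold change of GGPS1 was 0.77 (SE 0.13, 95% interval 0.48 to 1.05, adjusted p = 0.00033). FDFT1 (ENSG00000079459, chr8:11795573-11839304, plus strand), squalene synthase and the first committed step to sterols, gave 189.7, 199 and 183 CPM in PBS and 339, 334 and 337 CPM with rhSema3C. Every treated sample of FDFT1 was above every control, and the log2 fold change was 0.82 (SE 0.04, adjusted p = 5.2e-08). FDFT1 and GGPS1, which draw on the same substrate, rose by 1.77 and 1.70 times, and the ratio of GGPS1 to FDFT1 overlapped between the groups (log2 difference -0.04, SE 0.20, exact permutation p = 0.8, two-sided).

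**Figure D3:**
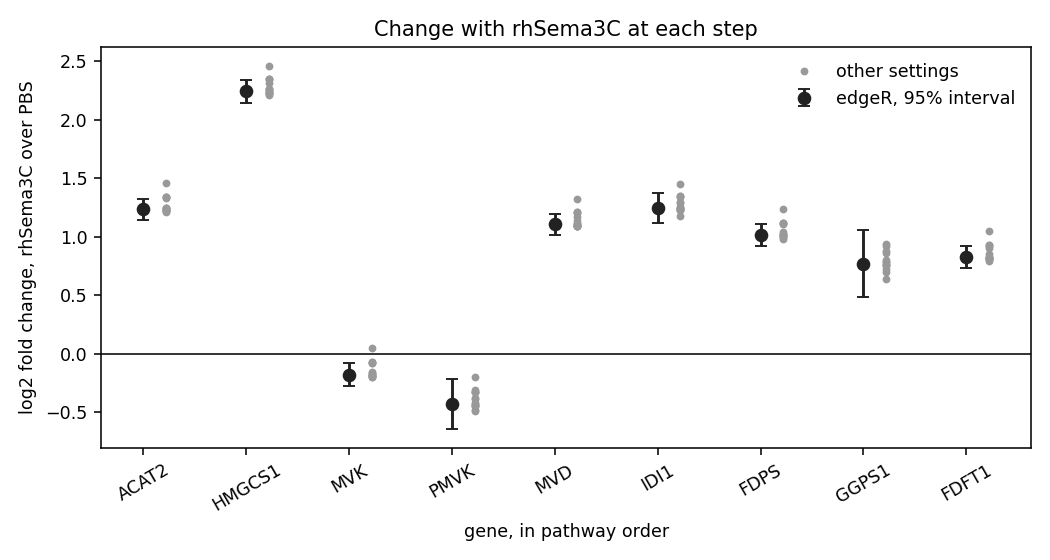
Log2 fold change of rhSema3C against PBS for the 9 genes in pathway order, with 95% intervals from edgeR. HMGCS1 stands highest at 2.24, MVK and PMVK lie below 0 at -0.18 (0.046 for MVK under scaling to TPM) and -0.43, and the change is positive again from MVD to FDFT1.

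How far the steps diverged from each other was measured by the ratio of their counts in each sample, a value that scaling between libraries does not change. The ratio of HMGCS1 to PMVK was 18.9, 16.9 and 15.8 in PBS and 99.7, 116 and 114 with rhSema3C. Every treated sample had a ratio more than 5 times that of any control. The log2 difference was 2.68 (SE 0.10), that is 6.40-fold, with an exact two-sided permutation p of 0.1, which is the smallest p that 3 samples against 3 can give. HMGCS1 and PMVK had the largest rise and the largest fall of the 9 genes. Each already had its groups apart, in opposite directions, so their ratio had to be apart as well, and its p adds no support. Of the 8 pairs that are adjacent in the list of 9 genes, 6 had ratios that did not overlap between groups (exact permutation p = 0.1 each, 0.133 after Benjamini-Hochberg adjustment over the 8 pairs), so no pair could pass 0.05 in this design. The share of other gene pairs without overlap was not computed, and of single genes 34.6% and 33.3% had groups apart upward and downward. The largest of these differences were HMGCS1 over MVK at 2.42 (SE 0.04), PMVK over MVD at -1.54 (SE 0.10) and ACAT2 over HMGCS1 at -1.01 (SE 0.05), all on the log2 scale. For HMGCS1 over MVK and PMVK over MVD, the genes had their groups apart in opposite directions, so these ratios had to be apart too. The smaller ones were MVK over PMVK at 0.25 (SE 0.09), IDI1 over FDPS at 0.23 (SE 0.07) and MVD over IDI1 at -0.13 (SE 0.08). FDPS over GGPS1 overlapped, at 0.23 (SE 0.19, exact permutation p = 0.4, adjusted p = 0.457).

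Summed over the 9 genes, the arm took 1221, 1215 and 1175 CPM in PBS and 3087, 3187 and 3094 CPM with rhSema3C. The total was higher in every treated sample, at 3123 ± 55.5 against 1203 ± 25.0 CPM (n = 3), 2.59-fold, with an exact two-sided permutation p of 0.1. The genes that rose already had their groups apart and made up most of the sum. The total therefore had to be apart as well, and its p adds no support. As a share of all counts the arm went from 0.116% to 0.324%. Within the arm's counts, which are not corrected for gene length, the share of HMGCS1 went from 22.8% ± 0.578 to 41.7% ± 0.891 (n = 3). The mean share of each of the other 8 genes was smaller with rhSema3C, including those that rose. Because shares are parts of one total, a gene that rose less than the total had to take a smaller share. MVK went from 6.74% to 2.29%, PMVK from 1.33% to 0.380%, FDFT1 from 15.8% to 10.8%, FDPS from 20.5% to 16.0% and ACAT2 from 18.2% to 16.5%.

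**Figure D4:**
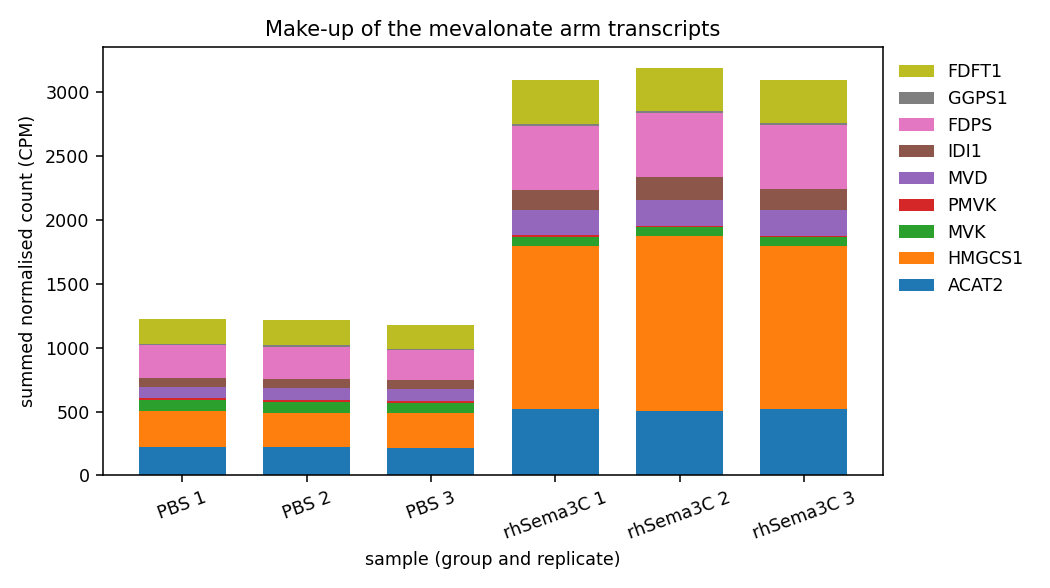
Summed CPM of the 9 genes in each of the 6 samples, stacked by gene. HMGCS1 makes up 22.2% to 23.2% of the sum in the PBS samples and 41.1% to 42.7% in the rhSema3C samples.

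To compare one gene with another, levels were taken per length, as the deposited FPKM and, because FPKM depended on how many transcripts a gene has, also as CPM per kilobase of the longest GENCODE 29 transcript. In FPKM the order in PBS was ACAT2 (78.3 ± 1.84), FDPS (62.6 ± 2.45), HMGCS1 (39.1 ± 1.09), FDFT1 (34.5 ± 1.25), MVD (18.7 ± 0.504), IDI1 (15.1 ± 0.0510), PMVK (15.1 ± 1.14), MVK (11.8 ± 0.241) and GGPS1 (2.81 ± 0.555), each with its SD over 3 samples. IDI1 and PMVK overlapped and the other neighbours in this order did not. With rhSema3C, HMGCS1 at 199 ± 7.81 FPKM overlapped with ACAT2 at 198 ± 3.04 FPKM at the top, followed by FDPS (136 ± 0.410), FDFT1 (65.5 ± 0.444), MVD (43.2 ± 0.666) and IDI1 (38.4 ± 3.30). PMVK (11.98 ± 0.804 FPKM) and MVK (11.2 ± 0.252 FPKM) overlapped, and GGPS1 (5.13 ± 0.285 FPKM) was lowest. HMGCS1 and ACAT2 were thus not separable at the top, and the kinases stayed near the bottom.

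On the scale of CPM per kilobase, FDPS led in PBS at 123 ± 5.03, ahead of HMGCS1 at 78.4 ± 1.91, whereas FDFT1 at 71.6 ± 2.98 and ACAT2 at 69.0 ± 1.81 overlapped. With rhSema3C, HMGCS1 led at 371 ± 14.6 CPM per kilobase, followed by FDPS at 247 ± 0.868 and ACAT2 at 162 ± 2.44. GGPS1 was lowest in both groups on both scales, and HMGCS1 had the highest mean with rhSema3C on both. By mean, MVD was 5th and IDI1 6th on both scales in both groups, and FDFT1 was 4th on both with rhSema3C. The remaining places depended on the scale. FDPS stood above ACAT2 per kilobase and below it in FPKM in both groups. In PBS the means of HMGCS1 and FDFT1 were likewise above that of ACAT2 per kilobase and below it in FPKM. HMGCS1 stood above FDFT1 on both scales. MVK exceeded PMVK per kilobase of the longest transcript, at 19.7 ± 0.456 against 12.5 ± 0.920 CPM per kilobase in PBS. The length implied by count and FPKM was 1.02 times the longest transcript (median of 753 genes) for genes with 1 listed transcript and 1.92 times (107 genes) for genes with 20. PMVK has 1 listed transcript and FDFT1 has 22, so FPKM places the genes with many transcripts lower relative to their counts.

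Several of the 9 genes overlap another gene or start close to one on the other strand. The sources used here do not say whether the counting used strand, so reads from overlapping exons cannot be assigned to one gene with certainty. MVK starts 325 bases from MMAB, an adenosyltransferase of vitamin B12 metabolism on the other strand, and the start of MMAB lies within the MVK window printed above. The pair shares 306 exonic bases, 4.72% of those of MVK. MMAB rose from 52.9 ± 3.73 to 68.02 ± 1.07 CPM (n = 3), with a log2 fold change of 0.36 (SE 0.06, adjusted p = 0.00022 from edgeR), while MVK was at -0.18. The ratio of MVK to MMAB counts was 1.48, 1.51 and 1.62 in PBS and 1.07, 1.04 and 1.04 with rhSema3C. The ratios did not overlap (log2 difference -0.55, SE 0.04, exact permutation p = 0.1). In CPM, MVK and MMAB each had their groups apart, in opposite directions. Their ratio therefore had to be apart as well, and its p adds no support. The direction of MVK itself did not hold under every scaling.

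For the other divergent pairs, SNAI3-AS1, an antisense RNA that starts 137 bases from MVD and inside the printed MVD window, rose from 5.65 to 11.2 CPM (log2 fold change 0.99, SE 0.12, adjusted p = 2.2e-05). Its ratio to MVD overlapped between the groups (log2 difference of MVD over SNAI3-AS1 0.11, SE 0.11, exact permutation p = 0.5). WDR37, whose start is 368 bases from that of IDI1, fell from 24.4 to 18.0 CPM (log2 fold change -0.44, SE 0.08, adjusted p = 0.00049), against the rise of IDI1. ARID4B, a chromatin protein gene that starts 867 bases from GGPS1, rose from 14.0 to 18.2 CPM (log2 fold change 0.38, SE 0.09, adjusted p = 0.0036), less than GGPS1 did. The ratio of IDI1 to WDR37 and that of GGPS1 to ARID4B did not overlap between groups, at log2 differences of 1.68 (SE 0.10) and 0.41 (SE 0.15). These ratios were chosen after the values had been seen, and with 4 pairs their exact permutation p of 0.1 became 0.133 after adjustment. IDI1 and WDR37 each had their groups apart in CPM, in opposite directions, so their ratio had to be apart as well. The share of other gene pairs without overlap was not computed. Of single genes, 34.6% had groups apart upward and 33.3% downward.

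Among genes that overlap a member at its 3′ end or inside it, RUSC1-AS1 over FDPS rose from 5.29 to 19.2 CPM (log2 fold change 1.86, SE 0.12, adjusted p = 1.9e-07). It shares 18.6% of the exonic bases of FDPS and its counts came to 3.34% of those of FDPS. IDI2-AS1 over IDI1 rose from 1.39 to 3.76 CPM (log2 fold change 1.44, SE 0.24, adjusted p = 0.0003), with counts of 2.20% of those of IDI1. Both antisense genes moved in the direction of the member they overlap, and both are small beside it. TCP1, a chaperonin subunit whose 3′ end meets that of ACAT2, was lower at -0.15 (SE 0.04, adjusted p = 0.006). SOD2-OT1, which overlaps the start of ACAT2, had 465 counts over the 6 samples and a log2 fold change of 1.67 (SE 0.70, adjusted p = 0.058). The gene listed as TBCE on the strand of GGPS1 shares 37.3% of the exonic bases of GGPS1 and had 1916 counts against 7587, with a log2 fold change of 0.83 (SE 0.61, adjusted p = 0.25). Reads from that stretch could be counted for either gene. Of 3 other genes named only by a clone, AL451085, AL391994 and AC069185, none exceeded 142 counts over the 6 samples.

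The genes around the arm were read from 4 further lists. Not every gene of these processes is analysed here, so the counts describe the genes listed and not the whole process. Of 11 enzymes listed between squalene and cholesterol, 10 were higher and 1 did not pass, with a median log2 fold change of 0.66, and 3 passed the 2-fold rise, against 31.7% of all genes called higher and 3.42% past the 2-fold rise. The 9 genes of the mevalonate arm had a median of 1.01. MSMO1, which oxidises the methyl groups at carbon 4 of the sterol, had the largest rise, from 171 to 467 CPM (log2 fold change 1.44, SE 0.06). EBP, a sterol isomerase, had the lowest value among those listed and did not pass, at 57.8 against 58.01 CPM (log2 fold change 0.0055, SE 0.05, adjusted p = 0.93 from edgeR). With limma on FPKM or TPM, or at a mean FPKM of 5 or more, all 11 were called higher, EBP included.

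Upstream of the arm, 5 of 6 listed genes for acetyl-CoA supply and related reactions were tested: 3 were higher, against 31.7% of all genes, with a median of 0.31, and none was lower at an unadjusted p under 0.05 by edgeR or by DESeq2. ACSS2, which makes acetyl-CoA from acetate in the cytosol, rose from 62.6 to 227 CPM (log2 fold change 1.86, SE 0.05, adjusted p = 8.9e-10). ACLY, which makes it from citrate, rose less (log2 fold change 0.32), as did ACAT1, the mitochondrial thiolase (0.31). ACSS1, the mitochondrial form of ACSS2, and SLC25A1, the citrate carrier, did not pass, at 0.17 (adjusted p = 0.26) and 0.01 (adjusted p = 0.88), although all 5 genes were called higher with limma on TPM. IDI2, a paralog of IDI1, was below the filter.

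Downstream of FDPS and GGPS1, 14 genes of prenylation, dolichol and ubiquinone synthesis gave 3 rises, 6 falls and 5 without a call, against 31.7% and 30.6% of all genes, with a median of -0.14 and no gene past the 2-fold rise. The balance turned with the scaling, to 6 higher and 4 lower with limma on TPM. FNTA and FNTB, the subunits of farnesyltransferase, were the extremes of the list. FNTA rose (log2 fold change 0.50, SE 0.09), and FNTB fell from 47.1 to 27.2 CPM (log2 fold change -0.79, SE 0.07). Of 7 genes of SREBP control, 5 were higher, against 31.7% of all genes, and 2 lower, with a median of 0.44. The falls were near the 30.6% of all genes called lower. The 2 lower genes became 1 with limma on FPKM and 0 with limma on TPM. At an unadjusted p under 0.05 they were 2 on FPKM and 0 on TPM. INSIG1, the sterol-dependent anchor of SREBP in the endoplasmic reticulum and itself an SREBP target, had the largest rise (log2 fold change 1.77), and SCAP, the escort of SREBP, the largest fall (-0.30) under edgeR.

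The genes whose profile over the 6 samples was nearest to that of a member were found by the root-mean-square difference of centred log2 CPM among the 6865 genes compared, all with a mean FPKM of 5 or more. For HMGCS1 they were TRIB3 (0.0475), PSAT1 (0.0848) and MT-RNR1 (0.117), with log2 fold changes of 2.24, 2.32 and 2.02. For PMVK they were MED25 (0.0399), PDAP1 (0.0409) and PRKCSH (0.0410), with log2 fold changes of -0.43, -0.45 and -0.43. With 2 groups of 3 samples, such likeness reflects mainly an equal difference between the groups.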

How the data were processed

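RNA-seq of 6 LX-2 samples, 3 treated with rhSema3C and 3 with PBS, was grouped by the sample labels, which call the replicates biological. The p-values measure only the spread between these samples, which may be technical. For every gene the deposited table gives raw whole-number counts and, in further columns, FPKM, which the authors had already scaled for length and depth. According to the methods, the authors used the Cufflinks package. Aligner, genome build and strand setting are not given in the sources used here. Of the genes in the table, 32887 were matched by identifier to GENCODE 29 on GRCh38, and 99.8% of these overlapped on the same chromosome, though only 59.9%, and 5 of the 9 members, had the same start and end. Distances between starts use the deposited coordinates and shared exonic bases those of GENCODE 29, so both are approximate. No molecular identifiers were used.

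The 14178 genes whose FPKM averaged 0.5 or more were tested with edgeR 4.0.16 (R 4.3.3), TMM factors and the quasi-likelihood test, which was checked on simulated counts. In that simulation few genes changed, equally up and down, and all genes had the same dispersion. It could therefore not check the scaling or the error rate where as many genes change as here. P-values were adjusted by Benjamini-Hochberg over all genes tested. Ratios and the arm total were compared by two-sided exact permutation over samples. The common biological coefficient of variation was 0.117. Alternatives were library size alone, DESeq2 1.42.0, limma 3.58.1 on log2(FPKM + 1), log2(FPKM + 0.1) and log2(TPM + 1), no filter, a mean FPKM of at least 5, a replicate block, and the omission of 1 sample at a time. The scale of CPM per kilobase was added after the data were seen.

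The genes named were the 9 members, the largest rise and fall of each further list, the acetyl-CoA list, overlapping or neighbouring genes, and the 3 genes nearest in profile to HMGCS1 and to PMVK. The members and the lists were chosen with earlier results of these data known. Figures were drawn with matplotlib 3.10.9. Some single genes are left unreported here, and the lists were counted without them, after their values had been seen.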

Additional observations from a re-analysis of the deposited data

How the results depend on the processing

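The directions of the 7 rises and of PMVK, and their side of the threshold, held under every alternative that tested them. GGPS1 was not tested at a mean FPKM of at least 5. On the log2 scale, HMGCS1 varied from 2.21 to 2.46, with ranges from 1.21 to 1.46 for ACAT2, from 0.98 to 1.24 for FDPS and from 0.64 to 0.94 for GGPS1, and between 4 and 6 members passed the 2-fold rise. The ratio of HMGCS1 to PMVK stayed between 2.62 and 2.75 on the log2 scale.

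MVK lost its call in 5 of 14 alternatives, which left 1 member lower in place of 2: library size alone (-0.07), limma on log2(FPKM + 1) (-0.07) and on log2(FPKM + 0.1) (-0.08), a mean FPKM of at least 5 (-0.08), and limma on log2(TPM + 1), where its sign reversed to 0.046. In the SREBP list, 2 genes were lower with edgeR, 1 with limma on either FPKM scale and 0 with limma on log2(TPM + 1), where 0 were also lower at an unadjusted p. In the prenylation, dolichol and ubiquinone list, 6 genes in place of 3 were higher with limma on log2(TPM + 1), and in the acetyl-CoA list 5 in place of 3. The cause was not tested. The median of all genes, 0.02 with edgeR, was 0.13 with library size alone, 0.09 and 0.12 with limma on FPKM, 0.23 on TPM and, in the other direction, -0.0053 at a mean FPKM of at least 5.

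Same-numbered samples did not deviate together (correlations of -0.077, -0.046 and -0.036), so no pairing by replicate number was seen. Whether same-numbered samples were handled together cannot be told from this. With the replicate block, 7 members were higher and 2 lower, as without it. PMVK and GGPS1, with between 646 and 1889 counts a sample, rest on the fewest reads, and with 3 samples a group an exact test of one value cannot go below 0.1.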
